A study of Mus musculus with 14 samples.

Results

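The 10 genes described here encode the co-activators YAP and TAZ, the 4 TEAD transcription factors, the kinases LATS1 and LATS2, and the products of Ankrd1 and Amotl2. The sites assigned to them were the H3K27ac sites that touched the annotated gene body or the 50 kb beyond either end, on the mouse build GRCm38 (mm10). By this rule 376 of 122228 sites belonged to the 10 genes, and each of the 376 belonged to 1 gene only.

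The Hippo pathway is a kinase cascade that restrains growth. Its core kinases LATS1 and LATS2 phosphorylate YAP and TAZ, which are then kept in the cytoplasm or degraded. When the cascade is inactive, as in spread cells on a stiff support, YAP and TAZ enter the nucleus and bind TEAD proteins, which provide contact with DNA. Fibroblasts in culture are a classical setting for this regulation, and Ankrd1, Amotl2 and Lats2 are themselves among the genes that YAP and TAZ are known to activate.

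The cells were immortalised mouse embryo fibroblasts (iMEF) in which exon 4 of both endogenous Ash2l alleles had been deleted, and which lived on a lentiviral human ASH2L carrying an N-terminal FKBP12F36V tag. The dTAG compound brings about degradation of the tagged protein. H3K27ac, a histone mark of active promoters and enhancers, was measured by ChIP-seq in 12 libraries, 2 each from control cells without dTAG and from cells after 30 min, 2 h, 4 h, 8 h and 16 h of dTAG, beside 2 input libraries from control cells and from cells after 16 h. According to the study's methods these marks were measured in a single clone (NG3), so all groups shared the deletion, the transgene and the clone.

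The values analysed were the positions of the sites, joined over all of these samples into a single list. A site could therefore come from any time point, the depth behind it was unknown, no value below has a replicate error, and changes over time were not analysed. Each value is a description, set beside the same value over all 21755 protein-coding genes of chromosomes 1 to 19 and X or over the 122171 sites on these chromosomes. As a check of the cell type, 8 of 10 fibroblast marker genes had a promoter site and 10 of 10 had one by any overlap. Promoter sites were found at 1 of 5 epithelial markers (Krt8), 2 of 4 endothelial markers (Cdh5 and Tek) and 1 of 4 blood cell markers (Cd68). Over all coding genes the share was 54.7%, or 55.8% by any overlap, so the endothelial count was near that of coding genes. These marker sets were small.

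Sites were counted as promoter sites if their middle was at most 1 kb away from an annotated transcription start site (TSS) of the gene. Such a site was found at 9 of the 10 genes, compared to 54.7% of coding genes. Counted by any overlap with the same window, the numbers were again 9 of 10 and 55.8%. The exception was Lats1, for which the list analysed here held 0 sites in body and flanks. It lay in a long stretch without any site, described with the gene, in which 4 other CpG-rich genes also had no promoter site. Of the 10 genes, 9 had a CpG-rich 5′ end, Ankrd1 being the other, and 81.6% of CpG-rich coding genes had a promoter site. Hence the count was closer to that of CpG-rich genes than to that of all genes. The 10 genes also had a median of 7.5 annotated TSSs, compared to 3 for coding genes, so a promoter site could be counted at more places. With the main 5′ end only, 7 of the 10 genes and 50.7% of coding genes had a promoter site.

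The 376 sites divided into 23 promoter sites, 10 exonic sites, 229 intronic sites, 54 upstream sites and 60 downstream sites. Intronic sites were present in 8 of the 10 genes, compared to 32.9% of coding genes, and sites in the flanks accompanied 8 of 10, compared to 77.5%. Thus the share with a flanking site was near that of coding genes, and the share with an intronic site was higher. The body of the median gene among the 10 was 52.0 kb long, compared to 17.4 kb for coding genes, and a longer body offers more room for intronic sites. Per 10 kb of gene body the median was 3.11 sites, compared to 0.331 in coding genes. Neither the intronic share nor this density was compared within CpG-rich genes, to which 9 of the 10 belonged.

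**Figure D1:**
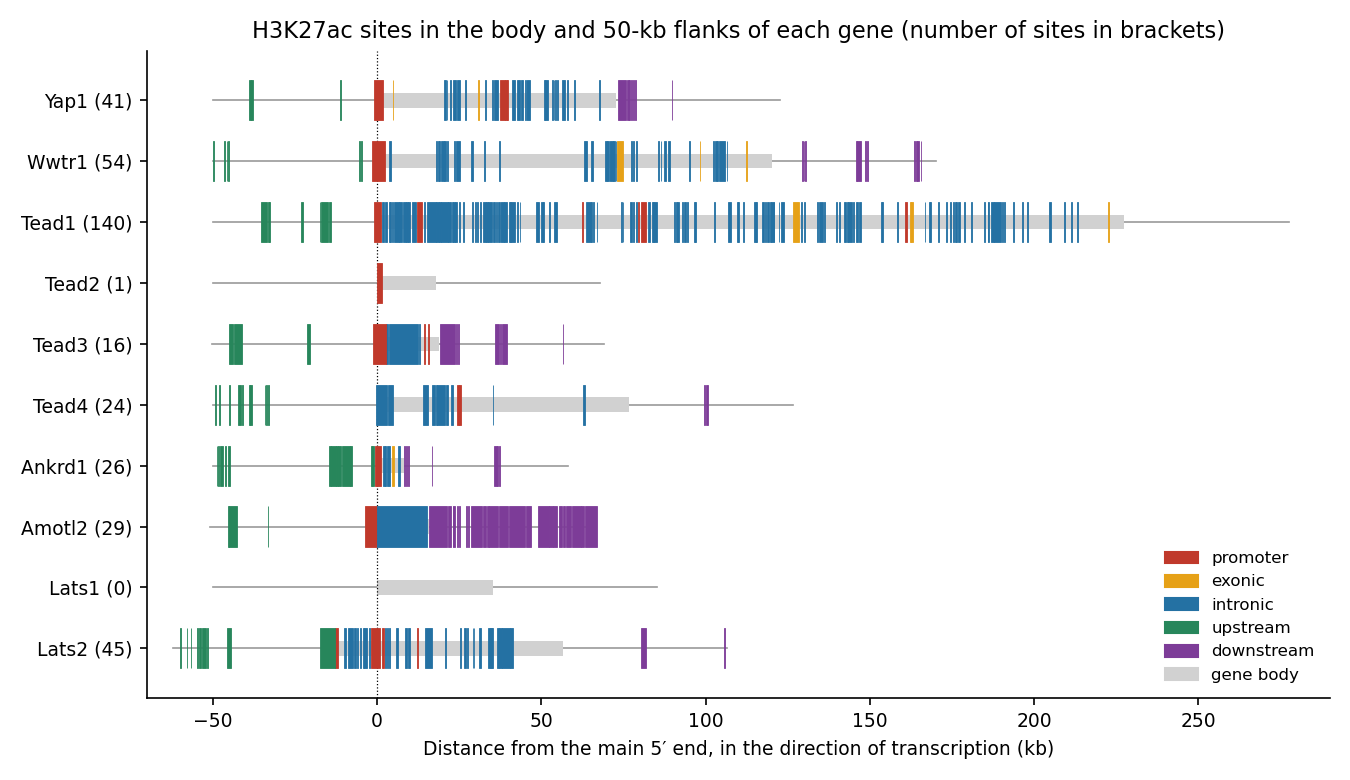
Map of the H3K27ac sites of each gene (rows), with the distance from the main 5′ end on the x axis in kb, read in the direction of transcription. Coloured boxes are sites drawn to their width and coloured by position, grey bars are gene bodies, lines mark the 50-kb flanks, and the number of sites stands in brackets. Tead1 carried 140 sites, most of them inside the gene, Amotl2 had a dense row of sites after its 3′ end, and Lats1 had 0.

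To show what these sites look like in sequence, the central 200 bases are given for 4 sites that held ACATTCCA, a form of the sequence that TEAD proteins are known to bind. They are the widest such site of each gene that had one. They comprise the Wwtr1 intron 2 site at chr3:57503649-57503848 (minus strand), the Tead1 intron 2 site at chr7:112770740-112770939 (plus strand), the Lats2 intron 1 site at chr14:57736391-57736590 (minus strand) and a site downstream of Amotl2 at chr9:102760200-102760399 (plus strand), all on GRCm38 and written 5′ to 3′ on the strand of the gene. Capitals mark ACATTCCA or its reverse complement.
Wwtr1 intron 2: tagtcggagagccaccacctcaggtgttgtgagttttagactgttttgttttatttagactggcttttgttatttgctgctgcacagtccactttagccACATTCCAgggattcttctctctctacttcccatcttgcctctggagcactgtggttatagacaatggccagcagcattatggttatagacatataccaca
Tead1 intron 2: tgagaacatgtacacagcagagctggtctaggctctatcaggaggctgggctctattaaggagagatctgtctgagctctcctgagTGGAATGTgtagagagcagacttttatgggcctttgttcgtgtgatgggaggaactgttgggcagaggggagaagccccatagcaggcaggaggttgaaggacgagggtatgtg
Lats2 intron 1: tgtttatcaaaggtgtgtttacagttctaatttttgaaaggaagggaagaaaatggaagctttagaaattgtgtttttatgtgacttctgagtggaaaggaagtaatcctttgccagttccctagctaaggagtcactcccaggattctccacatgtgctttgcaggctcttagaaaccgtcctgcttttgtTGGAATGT
Amotl2 downstream: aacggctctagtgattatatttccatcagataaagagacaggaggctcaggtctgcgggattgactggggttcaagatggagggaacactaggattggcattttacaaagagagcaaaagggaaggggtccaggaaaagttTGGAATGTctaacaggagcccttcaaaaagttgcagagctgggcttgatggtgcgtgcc

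The 5′ ends differed in their content of CpG dinucleotides. The 250 bases before the main 5′ end are given for Ankrd1 (chr19:36120100-36120349, minus strand), Tead2 (chr7:45215503-45215752, plus strand) and Lats2 (chr14:57746124-57746373, minus strand), with every CpG in capitals. They show the CpG-poor promoter of the set, the promoter whose site began after the 5′ end, and a CpG-rich promoter inside a site.
Ankrd1 upstream: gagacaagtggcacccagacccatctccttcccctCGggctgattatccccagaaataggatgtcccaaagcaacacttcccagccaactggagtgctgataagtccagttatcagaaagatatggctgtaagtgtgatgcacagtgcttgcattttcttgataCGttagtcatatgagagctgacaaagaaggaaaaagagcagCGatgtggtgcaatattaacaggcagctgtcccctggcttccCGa
Tead2 upstream: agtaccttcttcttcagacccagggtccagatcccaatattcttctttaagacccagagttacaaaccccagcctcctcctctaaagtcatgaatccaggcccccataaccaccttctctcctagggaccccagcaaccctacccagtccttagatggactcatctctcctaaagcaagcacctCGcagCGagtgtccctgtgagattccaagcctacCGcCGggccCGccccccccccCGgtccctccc
Lats2 upstream: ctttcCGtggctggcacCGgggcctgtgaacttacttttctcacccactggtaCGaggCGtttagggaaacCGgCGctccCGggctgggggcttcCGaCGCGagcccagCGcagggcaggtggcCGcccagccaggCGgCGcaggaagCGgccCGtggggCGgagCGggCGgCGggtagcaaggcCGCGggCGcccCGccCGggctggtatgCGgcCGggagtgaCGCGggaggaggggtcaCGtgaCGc
Ankrd1 had 4 CpGs in this stretch, Tead2 had 6 and Lats2 had 31. The median was 17 in CpG-rich coding genes and 2 in the other coding genes. All 250 bases lay in a site at Ankrd1 and Lats2, and 0 lay in a site at Tead2.

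Yap1, on the minus strand of chromosome 9 (7931999 to 8004596), encodes the co-activator YAP. It had 41 sites, namely 4 promoter sites, 2 exonic sites, 25 intronic sites, 3 upstream sites and 7 downstream sites. The main 5′ end lay inside a site of 2744 bp, and sites covered 92.4% of the 2 kb around it. The other 3 promoter sites formed a group inside the gene with middles 38045, 39208 and 39724 bp after the main 5′ end, at internal TSSs. Intron 2, the longest at 27.5 kb, held 6 sites, whereas intron 5 held 8 in 14.4 kb. Beyond the 3′ end, 6 sites within 5464 bp made up the longest run of the gene, counting sites less than 1 kb apart as a run. Of the upstream sites, 2 were at the promoter of the neighbour Cfap300.

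Wwtr1 encodes TAZ, the other co-activator, and lies on the minus strand of chromosome 3 (57455649 to 57575910). It had 54 sites, of which 1 was a promoter site, 3 were exonic, 33 intronic, 6 upstream and 11 downstream. The promoter carried a single broad site of 3869 bp that covered 100% of the 2 kb around the main 5′ end. Wwtr1 had 2 annotated TSSs and Yap1 had 7, so promoter sites could be counted at fewer places than in Yap1. Intron 2 is 73.0 kb long and held 20 of the intronic sites. Of the 17 flanking sites 13 were between coding genes and 4 were in the body of Tm4sf4. The 2 co-activator genes carried 4.27 sites per 10 kb in Yap1 and 3.08 in Wwtr1, which ranked 1086 and 1864 among the 21755 coding genes, respectively.

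**Figure D2:**
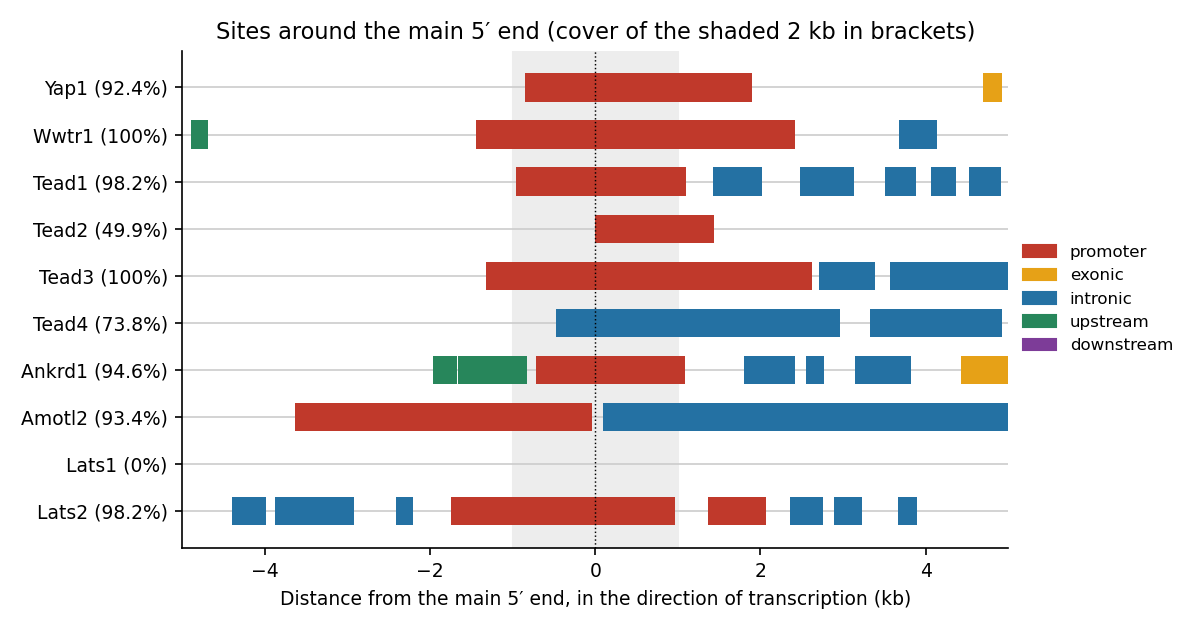
Sites within 5 kb of the main 5′ end of each gene (rows), with the distance in kb on the x axis. Boxes are sites, cut at the edges of the plot and coloured by the position of their middle, and the shaded band is the 2 kb whose cover stands in brackets. The band was fully covered at Wwtr1 and Tead3 and empty at Lats1. At Tead4 a site counted as intronic spans the 5′ end, because its middle lies 1246 bp after it.

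The TEAD genes encode the DNA-binding partners of YAP and TAZ. They ranged from 1 site at Tead2 to 140 at Tead1. Tead1 is on the plus strand of chromosome 7 (112679318 to 112906807). It had 6 promoter sites, 4 exonic sites, 123 intronic sites, 7 upstream sites and 0 downstream sites. By number of sites in body and flanks it ranked 28 of 21755 coding genes, and by intronic sites it ranked 22. Its body of 227 kb carried 5.85 sites per 10 kb, higher than in 97.5% of coding genes.

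The sites of Tead1 were found in most of its long introns, at different densities. Intron 1 (79.7 kb) held 54 sites or 6.78 per 10 kb, and intron 2 (79.8 kb) held 43 or 5.39 per 10 kb. The 9 sites of intron 10 corresponded to 6.20 per 10 kb. Toward the 3′ end, intron 11 (15.5 kb) held 4 sites or 2.59 per 10 kb. Intron 12 (2.45 kb) held 1 or 4.08 per 10 kb and intron 13 (4.08 kb) held 0. The short introns 3, 4 and 8 also held 0. From the promoter into intron 1, 23 sites formed a run of 26158 bp, which ranked 30 of 61769 runs in the list by number of sites. All 13 annotated TSSs of Tead1 had a promoter site. The megabase from 112000001 to 113000000 on chromosome 7 carried 357 sites, of which 133 (37.2%) had their middle in the body of Tead1.

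Tead2 was the TEAD gene with the fewest sites. It lies on the plus strand of chromosome 7 (45215753 to 45233644), and its only site was a promoter site of 1440 bp (45215756 to 45217195). The site began 3 bp after the main 5′ end, so that it covered 49.9% of the surrounding 2 kb nearly all of it on the side of the gene. There was no site elsewhere in the body or within 50 kb, whereas 11 sites were found with flanks of 100 kb.

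Tead3 and Tead4 were intermediate. Tead3, on the minus strand of chromosome 17 (28331671 to 28350817), had 16 sites, with 3 promoter sites, 3 intronic sites, 3 upstream sites and 7 downstream sites. Few but broad sites covered 69.1% of its body. They comprised a promoter site of 3949 bp and a site of 8975 bp with its middle in intron 1, which ranked 65 by width in the whole list. The latter is wider than intron 1 (8.97 kb) and reached into exons. Of its 10 flanking sites, 4 were at the promoters of the neighbours Fance, Ppard and Rpl10a and 2 were in the body of a neighbour.

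Tead4, on the minus strand of chromosome 6 (128224288 to 128300823), had 24 sites, with 2 promoter sites, 10 intronic sites, 10 upstream sites and 2 downstream sites. Its main 5′ end lay inside a site of 3443 bp, although both promoter sites were at an internal TSS, with middles 24580 and 25278 bp further into the gene. The main transcript had only 2 introns and was shorter than the gene body of 76.5 kb. Its intron 2 (29.2 kb) held 8 sites, and the other 2 intronic sites of the gene lay beyond this transcript. All 10 upstream sites were in the body or at the promoter of the neighbour Tulp3, and it cannot be told from positions to which gene they relate.

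**Figure D3:**
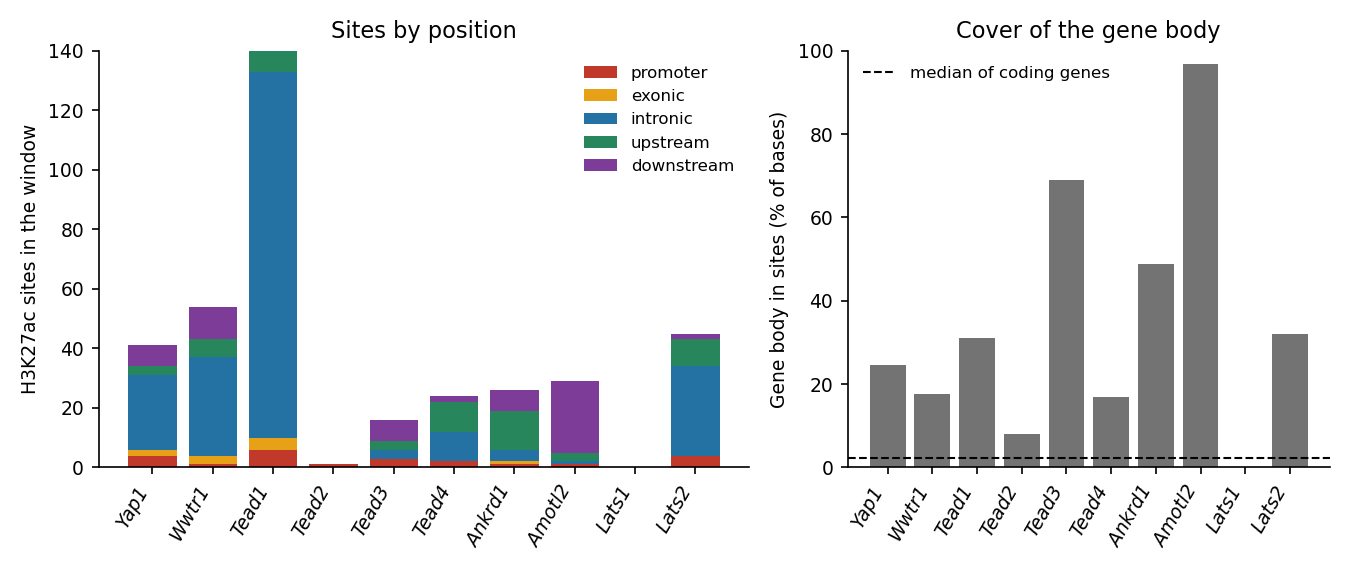
Left, number of H3K27ac sites of each gene (y axis), stacked by position. Right, percent of the bases of the gene body that lay in sites, with the median of coding genes (2.22%) as a dashed line. Tead1 had the most sites, whereas the highest cover was that of Amotl2 (96.8%), followed by Tead3 (69.1%).

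LATS1 and LATS2 are the kinases that act on YAP and TAZ, and their genes differed, with 0 sites at Lats1 and 45 at Lats2. Lats1, on the plus strand of chromosome 10 (7681214 to 7716460), had 0 sites in its body and flanks. This was the case for 17.9% of coding genes and for 4.65% of CpG-rich coding genes, to which Lats1 belongs. The gene lay in a stretch of 489.4 kb without a site (7290917 to 7780280), beginning 390.3 kb before its 5′ end. Of 122151 gaps between neighbouring sites 615 (0.503%) were at least as long, and the median gap was 1044 bp. The stretch contained the main 5′ ends of 6 coding genes, namely Ulbp1, Lrp11, Pcmt1, Nup43, Lats1 and Katna1. Of these, 5 were CpG-rich and 0 had a promoter site. The 0 thus held for the whole neighbourhood and not for Lats1 alone. A stretch without H3K27ac and a stretch left out of the list as analysed here cannot be told apart from positions, so the 0 at Lats1 is no measure of H3K27ac.

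Lats2 is on the minus strand of chromosome 14 (57689662 to 57758388) and had 45 sites. They comprised 4 promoter sites, 30 intronic sites, 9 upstream sites and 2 downstream sites. Of the 11 flanking sites, 3 were at the promoters of the neighbours Sap18 and Xpo4. A further 6 were in the body of a neighbour and 2 were between coding genes. A site of 2713 bp spanned the main 5′ end, and the 2 kb around it was covered to 98.2%. A further promoter site had its middle at -12264 bp from the main 5′ end, at the outermost TSS, with a site of 4377 bp just beyond. Across the main 5′ end, 13 sites formed a run of 13817 bp. Intron 2 held 16 sites in 30.8 kb. The gene carried 4.95 sites per 10 kb, compared to 4.27 at Yap1 and 3.08 at Wwtr1.

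Ankrd1 and Amotl2 are genes that respond to YAP and TAZ. Ankrd1 encodes an ankyrin repeat protein of muscle and of stimulated fibroblasts, and lies on the minus strand of chromosome 19 (36111961 to 36120099). Its 8.14-kb body carried 7.37 sites per 10 kb, the highest density among the 10 genes, and sites covered 48.9% of it. The promoter site of 1812 bp covered 94.6% of the 2 kb around the 5′ end together with the next site, although the promoter was not CpG-rich. In total there were 26 sites, with 1 promoter site, 1 exonic site, 4 intronic sites, 13 upstream sites and 7 downstream sites. The upstream sites fell into 3 groups. They comprised 2 sites next to the promoter, 6 sites with middles from -7926 to -14357 bp, and 5 sites from -45204 to -48713 bp relative to the 5′ end. Of the downstream sites 3 were at the promoter of the neighbour Rpp30.

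Amotl2 encodes a protein of the angiomotin family, which binds YAP and holds it outside the nucleus. It lies on the plus strand of chromosome 9 (102716672 to 102733418). Sites covered 96.8% of its body, more than in 99.4% of coding genes, yet there were only 0.597 sites per 10 kb. A single site of 15211 bp, which ranked 8 by width in the list, spanned nearly the whole gene and counts as 1. A second broad site of 3601 bp ended at -38 bp from the main 5′ end, so that the 5′ end itself lay between 2 sites. For 7 of the 10 genes the main 5′ end was inside a site, compared to 38.4% of coding genes, and Amotl2, Tead2 and Lats1 were the other 3. This was not compared within CpG-rich genes, to which 9 of the 10 belonged.

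Amotl2 also had the most flanking sites among the 10 genes. There were 24 sites downstream and 3 upstream, all 27 of them between coding genes. The downstream sites covered 79.6% of the 50 kb after the gene, which ranked 12 among coding genes, compared to 10.8% of the 50 kb before it. The last 9 downstream sites belonged to a run of 10 sites over 18950 bp that reached beyond the window. In the other genes the cover of the downstream flank was between 0% and 16.6%.

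**Figure D4:**
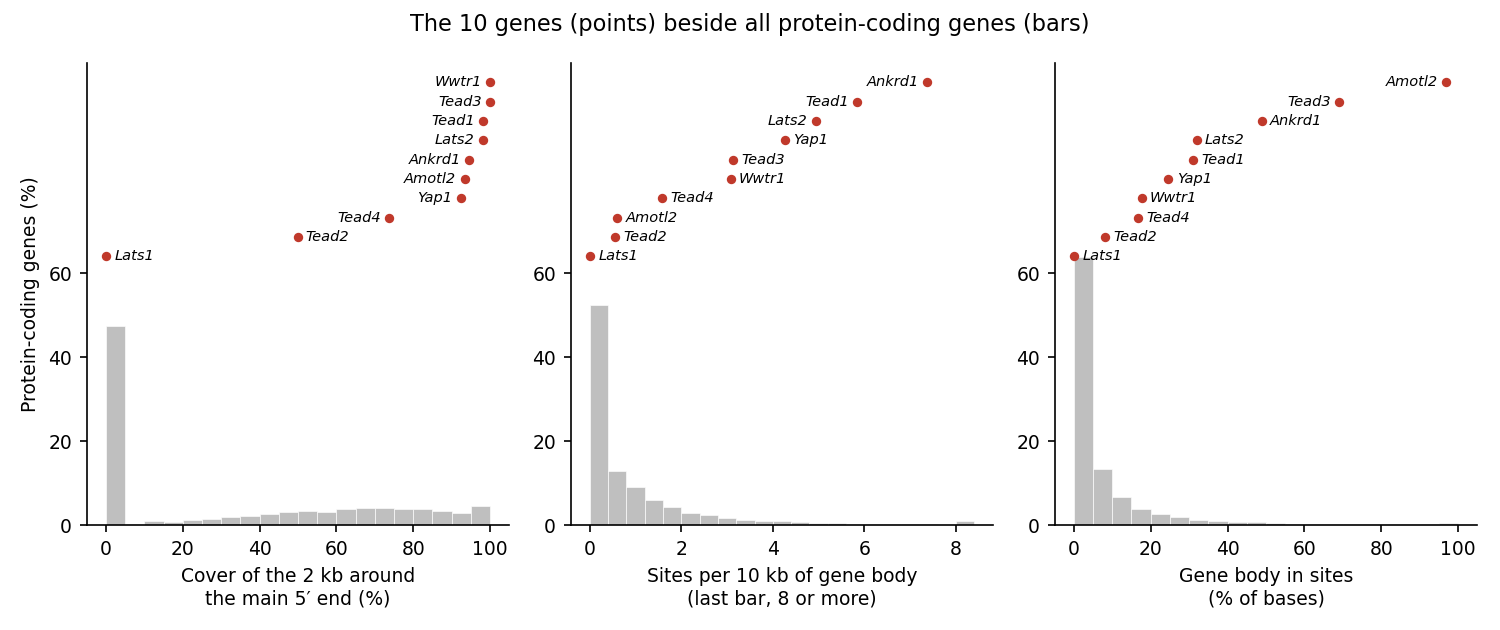
Position of the 10 genes (red points, named, ordered by value along the y axis without a scale) beside the distribution over all 21755 protein-coding genes (grey bars, percent of genes). From left to right the x axes give the cover of the 2 kb around the main 5′ end, the sites per 10 kb of gene body and the percent of the gene body in sites. The median cover around the 5′ end was 94.0% for the 10 genes and 20.9% for coding genes. Of the 10 genes 9 were CpG-rich, compared to 12048 of the 21755 coding genes, and cover was not compared within CpG-rich genes.

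Across the 10 genes, the number of sites and the bases in sites ranked the loci differently. By number of sites the order was Tead1 (140), Wwtr1 (54), Lats2 (45), Yap1 (41), Amotl2 (29), Ankrd1 (26), Tead4 (24), Tead3 (16), Tead2 (1) and Lats1 (0). By bases in sites it began with Tead1 (77756 bp) and Amotl2 (62522 bp). Lats2 (32579 bp), Wwtr1 (28682 bp) and Tead3 (27610 bp) followed. The order by number depends on how sites were split and on the flanks. With sites less than 1 kb apart merged, Amotl2 had 5, fewer than Tead4 (13), Tead3 (7) and Ankrd1 (7), and with flanks of 100 kb it had 49, compared to 48 at Yap1. No error is available for either order, so neighbours in it cannot be told apart.

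The median width of the 376 sites was 416.5 bp, compared to 401 bp in the list. Promoter sites of the 10 genes had a median of 909 bp, compared to 678 bp for all sites within 1 kb of a TSS. Their intronic sites had a median of 410 bp, compared to 369 bp for all sites away from TSSs. These sets are not quite alike. Sites of the 10 genes were classed by the TSSs of that gene only. The list was split by the TSSs of all genes and without regard to introns.

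The sequences at the centres of the sites were searched for the letters CATTCC, the core of the sequence that TEAD proteins bind, on both strands. In the central 200 bases CATTCC was found in 52 of 376 sites (13.8%, 95% Wilson interval 10.7 to 17.7%), compared to 12.3% of all sites. The interval covers counting error only and contains the value of the list. The longer ACATTCCA, which includes the core, was found in 6 sites (1.60%), compared to 1.15% of all sites. Of these 6 sites, 3 belonged to Wwtr1 and 1 each to Tead1, Lats2 and Amotl2.

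By gene, the share with CATTCC ran from 2.4% at Yap1 (1 of 41) to 20.7% at Amotl2 (6 of 29), leaving aside the single site of Tead2. Tead1 had the letters in 23 of 140 sites (16.4%, 11.2 to 23.4%). Ankrd1 had them in 5 of 26 sites (19.2%, 8.5 to 37.9%). These intervals also contained the value of the list.

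AP-1, a dimer of FOS and JUN proteins, often shares enhancers with TEAD proteins. Its motif TGANTCA was found in 24 of 376 sites (6.38%, 4.33 to 9.32%), compared to 8.1% of all sites. At Tead1 it was found in 4 of 140 sites (2.9%, 1.1 to 7.1%), and without Tead1 the share in the other genes was 8.47%. Both CATTCC and TGANTCA were present in 3 of 376 sites (0.798%), 1 each at Tead3, Ankrd1 and Amotl2, compared to 1.15% of all sites.

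**Figure D5:**
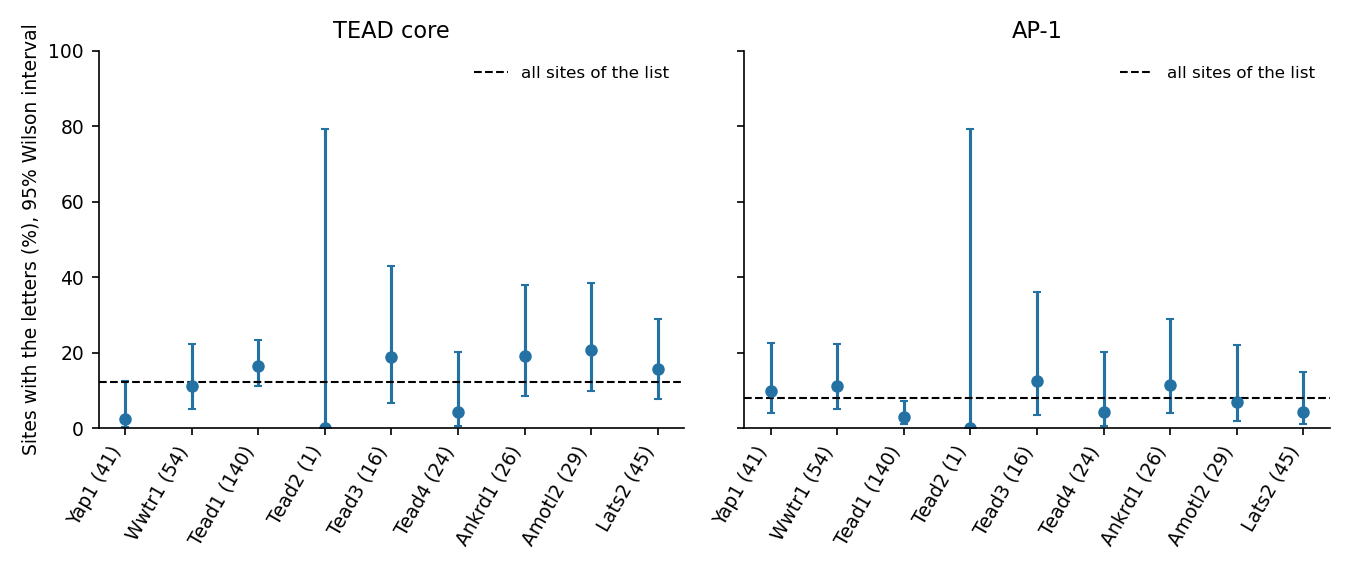
Percent of sites (y axis) whose central 200 bases held the TEAD core (left) or the AP-1 motif (right), for each gene with a site (x axis, number of sites in brackets). Points are shares, bars are 95% Wilson intervals, and dashed lines give the share over all sites of the list (12.3% and 8.1%). At Tead1 the interval for AP-1 (1.1 to 7.1%) lay below the line. It was picked out of all the intervals shown, and the sites of a gene are neighbours, so it is no test.

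The 250 bases before the main 5′ end were searched in the same way. CATTCC on either strand was present there in 5 of the 10 genes, namely Yap1, Wwtr1, Tead1, Tead3 and Amotl2. The same was true of 11.3% of coding genes and 9.5% of CpG-rich coding genes. Tead3 and Amotl2 each had 2 copies. The count depends on the 5′ end used. Before a RefSeq 5′ end of Ankrd1 that lay 255 bp further into the gene, the 250 bases held 2 copies. Before a RefSeq 5′ end of Tead3 that lay 254 bp further in, they held none. This comparison was made after the sequences had been seen, it rests on 10 genes, and a match of 6 letters says nothing about binding. The longer ACATTCCA and the AP-1 motif were present in 0 of the 10, beside 1.18% and 6.75% of 32851 RefSeq promoters over the same number of bases.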

How the data were processed

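H3K27ac ChIP-seq was carried out in 12 libraries, beside 2 inputs. Reads were trimmed with Trim Galore and aligned to mm10 with BWA by the authors, who merged replicates with Picard, called narrow peaks with MACS (MACS2 in the submitters' processing notes) and joined the peaks of all samples. The threshold and the way of joining were not given in the sources used here. The list analysed here, as the authors deposited it, gives genome positions (chromosome, start and end, in base pairs) and no count, score or sample for a site. Reads and tables of changed sites were not analysed here. Starts were read as counted from 0 and are printed counted from 1. If overlapping peaks were merged, a width can exceed that in any sample. The unit therefore allowed no test, and the number of sites per gene depends on how peaks were split.

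Genes were taken from GENCODE release M21, an earlier release than that of the authors. The main 5′ end was that of the principal protein-coding transcript. A site was assigned by its middle, first to the promoter (1 kb from any TSS of the gene), then to exons, introns or flanks. Cover is the percent of bases in sites. A 5′ end was CpG-rich if any 500-base window within 1 kb had a GC content of 55% or more and at least 0.65 times the CpGs expected from its base composition. Motifs were searched on both strands in the RefSeq copy of GRCm38.p6, from which the printed sequences were read. Calculations were run in Python 3.11.15 with pandas 2.3.3, numpy 2.4.6, statsmodels 0.14.6 and pysam 0.24.0, and matplotlib 3.10.9 for plots. The assignment was tested on simulated data with planted sites and motifs.

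The members and lists were chosen with earlier results of these data known. Named were all 10 genes, the pathway and target list genes without a promoter site or with the 3 highest covers, and neighbours with a promoter site in a window. Fat1, Fat4, Vgll3, Vgll4, Ccn2, Tm4sf4, the genes beside Lats1 and the single markers were chosen for naming after their values were seen, as was the motif search before the 5′ ends. Of 44 alternatives, 38 were planned and 6 were added after seeing the data.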

Additional observations from a re-analysis of the deposited data

How the results depend on the processing

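Of 44 alternatives over 10 results, 33 stayed within 1.5 times the reported value or, for motif shares, within its Wilson interval, and 11 moved. Merging sites less than 1 kb apart left 137 sites in the windows, 42 flanking and 79 intronic. It lowered the median density to 1.19 per 10 kb, a value not calculated for coding genes with sites merged. All counts of sites thus depend on how peaks were split. Flanks of 25 and 100 kb gave 54 and 221 flanking sites. Without Tead1 there were 236 sites and 106 intronic sites, as Tead1 held the remainder. In the central 400 bases the TEAD core was found in 23.7% of sites (list 23.5%) and the AP-1 motif in 15.4% (list 16.9%). The longer ACATTCCA, searched in the central 200 bases, was found in 1.60%. A promoter site was found at 7 of the 10 genes when only the main 5′ end was counted (50.7% of coding genes), at 8 with a 500-base window (50.1%) and at 9 under the other 3 alternatives. No paired analysis was possible because sites in the list analysed here have a position and no value per sample, and replicates could not be left out for the same reason. Of the 22 target genes, 14 had a promoter site with the 500-base window and 15 with the main 5′ end only. The depth behind the sites is unknown.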

Other observations

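Other genes of the Hippo pathway were described from a list of 30. Of these, 26 had a promoter site, or 27 by any overlap, compared to 54.7% of coding genes and 81.6% of CpG-rich coding genes. Since 27 of the 30 were CpG-rich, the latter is the closer comparison. The highest cover of the 2 kb around the main 5′ end (100%) included that of Wwc2, Ptpn14 and Map4k4. They encode a scaffold that activates LATS kinases, a phosphatase that binds YAP, and a kinase upstream of LATS, respectively. The genes without a promoter site were Dchs1, Vgll1, Vgll2 and Ajuba. Dchs1 encodes a protocadherin that is a ligand of FAT4, whereas the FAT genes of the list, Fat1 and Fat4, had covers of 88.0% and 100%. Of the vestigial-like TEAD partners, Vgll1 and Vgll2 had 2 sites each in body and flanks, whereas Vgll3 had 28 and Vgll4 had 57. The bodies of Vgll3 and Vgll4 are longer (51.1 and 109 kb, compared to 18.4 and 5.97 kb). In the flanks alone, Vgll3 had 4 sites and Vgll4 had 7, compared to 2 each at Vgll1 and Vgll2. At Ajuba the cover was 95.5%, and the 2 sites that overlapped its promoter windows had their middles more than 1 kb from a TSS.

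Of 22 genes commonly listed as targets of YAP and TAZ, which include 3 of the 10 genes, 20 had a promoter site, or 21 by any overlap, compared to 54.7% of coding genes and 81.6% of CpG-rich coding genes, and 18 of the 22 were CpG-rich. The median cover was 89.6%, compared to 20.9% in coding genes, and it was not compared within CpG-rich genes. Ccn1 and Ccn2, which encode secreted matrix proteins, are only 3.01 and 3.24 kb long, and had 46 and 28 flanking sites, respectively. Asap1 had 213 sites in body and flanks and Axl, a receptor kinase, had 25, and both had full cover like Ccn1. Igfbp3 had a cover of 0% and 6 flanking sites. At Arhgef17 the cover was 100%, although the middle of its site was too far from the TSS.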
